A study of Mus musculus with 2 samples.

Results

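The genes described here are the nuclear receptors for retinoic acid, the proteins that carry retinoic acid inside the cell and the enzyme Cyp26a1, which degrades it. They were taken by symbol from the table of counts per gene: Rara, Rarb, Rarg, Rxra, Rxrb, Rxrg, Crabp1, Crabp2 and Cyp26a1. All 9 symbols were found once each among the 22556 genes of the table. In undifferentiated mouse embryonic stem cells these genes were expressed at low levels. Together they drew 400 counts from the first library and 211 from the second, or 16.9 and 10.4 counts per 1000000 (CPM). Crabp1 had the highest mean level per length and Rxrg the lowest, with either way of measuring gene length.

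The samples were polyadenylated RNA of iXist-ChrX-Dom cells without induction, a female XX mouse embryonic stem cell (mESC) line with 1 genome of Mus musculus domesticus and 1 of castaneus, in which the Xist gene on the domesticus X chromosome is driven by a doxycycline-inducible promoter. There was 1 group of 2 replicates, both without doxycycline (0 h), so no treatment was compared. The line is a single clone by the study's methods, and it was grown in serum and LIF on inactivated feeder fibroblasts that were removed by pre-plating before harvest. Nothing in the labels says that the replicates were separate cultures, so their spread may be technical.

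Replicate 1 held 23716499 counts in total and replicate 2 20275749, so the floor for an undetected gene, set at 3 counts, was 0.126 CPM in the first and 0.148 CPM in the second. The floors and the intervals given with counts describe counting error alone. One label reads "mESC to NPC" (neural precursor cells), so cell type markers were checked with transcripts per 1000000 (TPM) on exonic length. Of 15 ES cell markers, 14 reached 1 TPM, with a median of 127 TPM, and Nanog stood at 770.2 TPM. Of 12 neural precursor markers 4 reached 1 TPM, among them Vim at 172 TPM, which many cell types express, and Nes at 3.78 TPM, while Sox1 and 2 others had 0 counts in both libraries. Of 18 fibroblast markers 3 reached 1 TPM, with a summed level of 9.00 TPM in replicate 1 and 5.29 in replicate 2. Those 3 were Fbn1 with 251 and 187 counts, Col5a1 with 128 and 71, and Thy1 with 32 and 2. By the test between libraries described below, 2 of the 7 fibroblast markers tested were lower in replicate 2 (28.6%), beside 45.7% of all tested genes. Of 8 primitive endoderm markers 4 reached 1 TPM, led by Dab2 at 12.2 TPM and Lama1 at 9.96 TPM, and the part of any such cells in the levels of the 9 genes was not tested.

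Retinoic acid is made from vitamin A and acts through transcription factors that bind it directly. The receptors RARα, RARβ and RARγ, encoded by Rara, Rarb and Rarg, bind DNA as pairs with the retinoid X receptors, encoded by Rxra, Rxrb and Rxrg. The pair sits at repeats of a short DNA core, holding corepressors without ligand and coactivators with it. In ES cells, added retinoic acid is a classic trigger of differentiation, and Rarb and Cyp26a1 are among its best known direct targets.

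The promoters of those 2 genes are shown because they are the only members whose promoter windows held such a repeat. RefSeq promoters (GRCm38.p6, 250 bases before to 50 after each transcription start, 15 windows for 8 of the 9 genes, none for Crabp2) were searched on both strands for paired cores. The DR5 type was read as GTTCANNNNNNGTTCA, GTTCANNNNNNGGTCA, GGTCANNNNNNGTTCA or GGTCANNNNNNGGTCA. The DR2 and DR1 types used the same cores with 3 and 2 bases between them. A DR5 was found in 81 of all 32851 windows (0.247%), a DR2 in 131 (0.399%) and a DR1 in 132 (0.402%). Capitals mark the DR5 match, and each window is written from 5′ to 3′ on the strand of its gene.
Rarb, chr14:16575427-16575726, minus strand: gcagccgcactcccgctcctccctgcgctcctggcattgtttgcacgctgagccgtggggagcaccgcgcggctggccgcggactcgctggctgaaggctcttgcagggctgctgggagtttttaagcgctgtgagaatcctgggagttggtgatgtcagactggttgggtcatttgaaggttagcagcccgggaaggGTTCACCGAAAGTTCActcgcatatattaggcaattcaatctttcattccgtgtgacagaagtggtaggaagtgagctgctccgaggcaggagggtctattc
Cyp26a1, chr19:37697558-37697857, plus strand: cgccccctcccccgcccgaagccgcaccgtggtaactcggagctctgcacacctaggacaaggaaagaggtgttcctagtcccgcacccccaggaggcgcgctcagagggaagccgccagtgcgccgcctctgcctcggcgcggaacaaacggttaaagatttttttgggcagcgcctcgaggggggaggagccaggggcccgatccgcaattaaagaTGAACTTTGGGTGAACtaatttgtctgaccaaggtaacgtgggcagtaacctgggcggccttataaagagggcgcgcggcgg
The match in Rarb, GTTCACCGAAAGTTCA, lay 52 to 37 bases before the start on the gene's own strand. The match in Cyp26a1, TGAACTTTGGGTGAAC, lay 32 to 17 bases before the start and reads as a DR5 on the other strand. No DR1 or DR2 was found in the 15 windows. The Rarb start used here lies inside the span of the gene, and the 5′ end of that span, at 17082331, had no window. A match of letters is a description of the window, and these RNA data do not show whether a receptor was bound there.

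Levels are given as TPM on 2 lengths, because the choice of length changes which genes look abundant. The deposited length covers the whole transcribed span of a gene, introns included, as the authors counted fragments over that span. The exonic length is the union of annotated exons. The table does not separate exonic from intronic fragments, so how many fragments of a gene came from each could not be measured, while the study's methods describe this mRNA material as poor in intronic reads. In such bulk RNA, few cells with much of a transcript and many cells with little of it cannot be told apart.

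**Figure D1:**
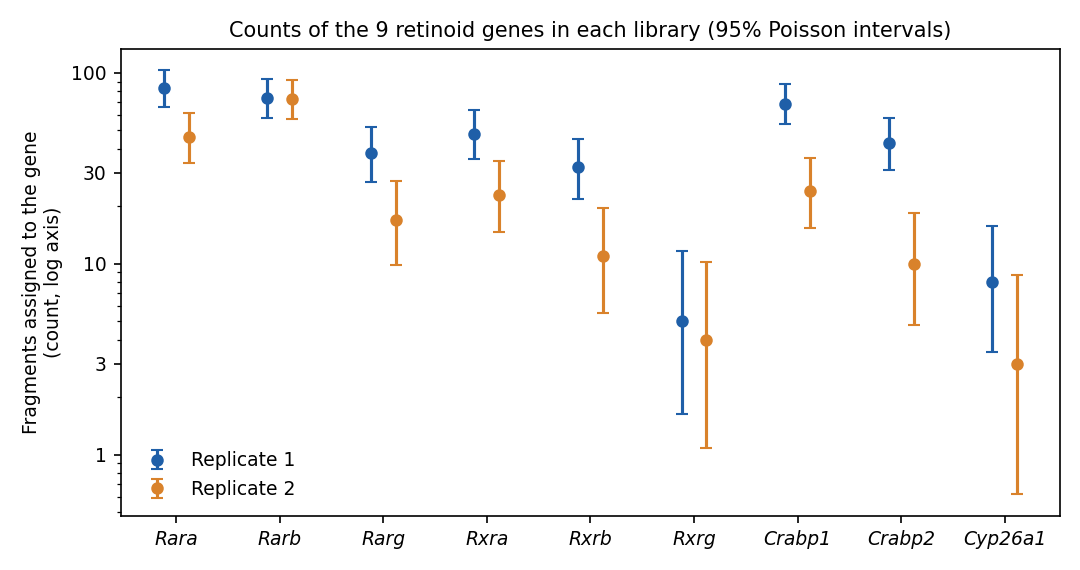
Counts of each of the 9 genes in replicate 1 (blue) and replicate 2 (orange), on a log axis, with exact 95% Poisson intervals as bars. Before any scaling for depth, the intervals of the 2 libraries are apart for Rara, Rxra, Rxrb, Crabp1 and Crabp2 and overlap for Rarb, Rarg, Rxrg and Cyp26a1.

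Among the retinoic acid receptors, Rara was above 1 TPM whichever length was used. Rara, the most broadly expressed of the family (chromosome 11, 98937695 to 98974942 in mm10, plus strand), received 83 counts in replicate 1 and 46 in replicate 2, with 95% Poisson intervals of 66.1 to 103 and 33.7 to 61.4. On the deposited length this gave 1.502 and 1.09 TPM, a mean of 1.30 ± 0.289 TPM (SD, n = 2), and on the exonic length 2.57 and 1.77 TPM, a mean of 2.17 ± 0.564 TPM (SD, n = 2). Replicate 1 was the higher on both scales. Its exonic TPM was higher than that of 51.6% of all genes.

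Rarb, itself a retinoic acid target, was the receptor whose place depended most on the length used. It lies on the minus strand of chromosome 14 from 16430839 to 17082331, a span of 651493 bp of which 3392 bp (0.521%) are exonic. Counts were nearly equal, 74 in replicate 1 and 73 in replicate 2. On the deposited length these gave 0.0766 and 0.0992 TPM, a mean of 0.0879 ± 0.0160 (SD, n = 2). On the exonic length they gave 2.89 and 3.54 TPM, a mean of 3.22 ± 0.464 (SD, n = 2), the highest of the 6 receptors. Rarb was therefore below Rara in both libraries on the deposited length, with a log2 ratio of Rarb to Rara of -4.29 and -3.46, and above it in both on the exonic length, with log2 ratios of 0.17 and 1.00.

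One neighbour matters for Rarb. In the GENCODE M21 annotation its 3′ end overlaps Top2b, which encodes a DNA topoisomerase, on the opposite strand over 4624 bp, 1793 bp of them exonic in both genes, whereas in the count table the 2 genes end 51 bp apart. Top2b received 12079 and 12280 counts, so that the counts of Rarb were 0.613% and 0.594% of those of Top2b. The log2 ratio between the replicates was 0.25 for Top2b and 0.21 for Rarb. The authors counted by strand, and whether any fragments from Top2b entered the count of Rarb was not tested. No gene of the table overlapped any of the 9 genes. GENCODE M21 also places Gm22061 within Rara and Gm48162 within Rarb, and neither is a row of the table.

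Rarg, the receptor best known from skin and early embryos (chromosome 15, 102234937 to 102257522, minus strand), received 38 and 17 counts. On the deposited length it stood at 1.13 and 0.666 TPM, a mean of 0.900 ± 0.331 (SD, n = 2), and on the exonic length at 1.48 and 0.825 TPM, a mean of 1.15 ± 0.465 (SD, n = 2). It lay on both sides of 1 TPM in the 2 libraries. Rarg was below Rara in both libraries on both scales, with log2 ratios of Rarg to Rara of -0.41 and -0.71 on the deposited length and of -0.79 and -1.10 on the exonic length.

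The retinoid X receptors are the shared partners of many nuclear receptors, and together received 85 and 38 counts. Rxra (chromosome 2, 27677200 to 27763319, plus strand) received 48 and 23 counts. It stood at 0.376 and 0.236 TPM on the deposited length, a mean of 0.306 ± 0.0985 (SD, n = 2), and at 1.25 and 0.742 TPM on the exonic length, a mean of 0.994 ± 0.356 (SD, n = 2). On the exonic length the 2 libraries thus lay on either side of 1 TPM.

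Rxrb (chromosome 17, 34031811 to 34038403, plus strand) has a compact span of 6593 bp, and received 32 and 11 counts. On the deposited length this gave 3.27 and 1.48 TPM, a mean of 2.37 ± 1.27 (SD, n = 2), the highest of the 6 receptors on that scale. On the exonic length it gave 1.47 and 0.627 TPM, a mean of 1.05 ± 0.593 (SD, n = 2). The log2 ratio of Rxrb to Rxra was 3.12 and 2.64 on the deposited length, and 0.24 and -0.24 on the exonic length, where the direction differed between the libraries.

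Rxrg, which is known mainly from muscle and brain (chromosome 1, 167598361 to 167639623, plus strand), was close to the floor with 5 and 4 counts. The Poisson intervals ran from 1.62 to 11.7 and from 1.09 to 10.2 counts. Its mean level was 0.0837 ± 0.00290 TPM on the deposited length and 0.287 ± 0.00102 TPM on the exonic length (SD, n = 2 each). The small SD rests on 2 low counts, and the Poisson intervals are the wider measure of its error. Rxrg ranked last by mean on both scales, although its replicate range overlapped that of Rarb on the deposited length and that of Cyp26a1 on the exonic length.

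Summed per length, the balance of the receptor classes also turned with the length. On the exonic length the 3 Rar genes summed to 6.94 and 6.14 TPM and the 3 Rxr genes to 2.999 and 1.66 TPM, a log2 ratio of summed Rxr to summed Rar of -1.21 and -1.89. On the deposited length the same ratio stood at 0.46 in replicate 1 and at -0.047 in replicate 2. Of the 2 lengths, the Rar genes therefore exceeded the Rxr genes in both libraries only on the exonic length. Without length they were also the higher, at 8.22 against 3.58 CPM in replicate 1 and 6.71 against 1.87 CPM in replicate 2.

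The 2 cellular retinoic acid binding proteins had the highest mean TPM among the 9 genes on both lengths, although in replicate 2 on the exonic length Crabp2 stood below Rarb and level with Rara. Crabp1, a carrier linked to sequestering and breakdown of retinoic acid in the cytoplasm (chromosome 9, 54764747 to 54773110, plus strand), received 69 and 24 counts, with Poisson intervals of 53.7 to 87.3 and 15.4 to 35.7. Its level was 5.56 and 2.54 TPM on the deposited length, a mean of 4.05 ± 2.14 (SD, n = 2), and 11.4 and 4.93 TPM on the exonic length, a mean of 8.16 ± 4.57 (SD, n = 2). Replicate 1 was the higher by more than the counting error, and both libraries were above 1 TPM.

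Crabp2, the carrier that delivers retinoic acid to the receptors in the nucleus (chromosome 3, 87948692 to 87953372, plus strand), received 43 and 10 counts, with Poisson intervals of 31.1 to 57.9 and 4.80 to 18.4. Its level was 6.19 and 1.89 TPM on the deposited length, a mean of 4.04 ± 3.04 (SD, n = 2), and 6.11 and 1.77 TPM on the exonic length, a mean of 3.94 ± 3.07 (SD, n = 2). The order of the carriers was not stable: on the deposited length Crabp2 stood to Crabp1 at a log2 ratio of 0.16 in the first library and of -0.43 in the second. On the exonic length it was -0.90 and -1.48.

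Cyp26a1, the cytochrome P450 that clears retinoic acid (chromosome 19, 37697807 to 37701536, plus strand), received 8 and 3 counts. The Poisson intervals were 3.45 to 15.8 and 0.619 to 8.77 counts, and the count in replicate 2 equals the floor of 3. Its level was 1.45 and 0.712 TPM on the deposited length, a mean of 1.08 ± 0.519 (SD, n = 2), and 0.591 and 0.276 TPM on the exonic length, a mean of 0.434 ± 0.223 (SD, n = 2). Cyp26a1 and Rarb both held a DR5 match, yet their order turned with the length: the mean of Cyp26a1 was the lower on the exonic length (0.434 against 3.22 TPM) and the higher on the deposited length (1.08 against 0.0879 TPM).

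**Figure D2:**
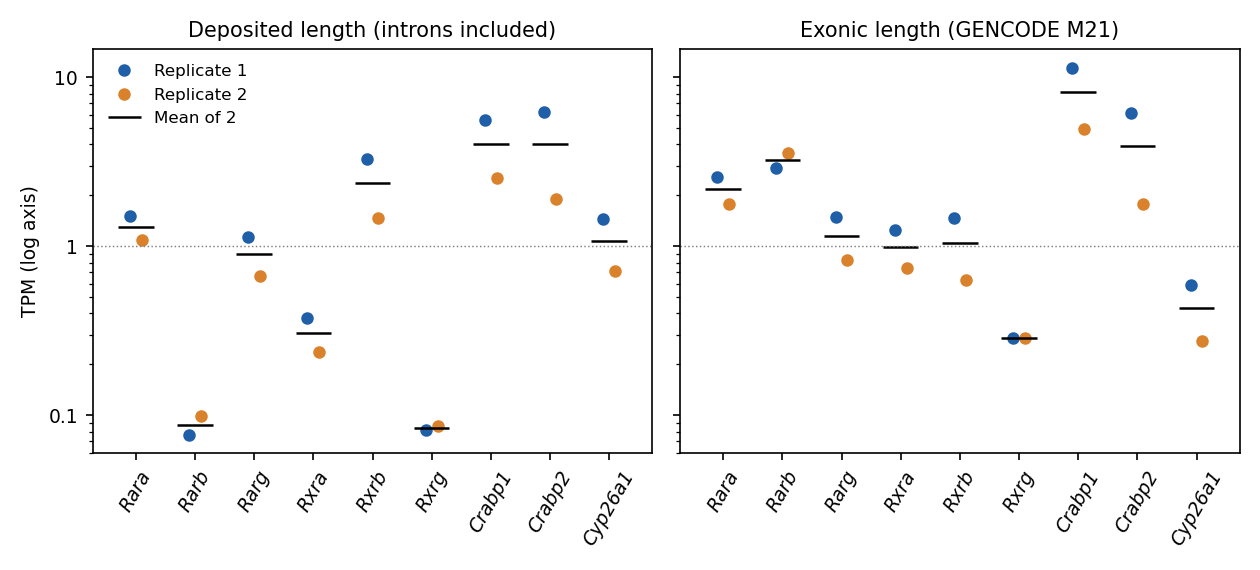
TPM of the 9 genes on a log axis, with the deposited length on the left and the exonic length on the right. Points are the 2 replicates, bars their mean, and the dotted line 1 TPM; Rarb moves from a mean of 0.0879 to 3.22 TPM between the panels, and Rxrb from 2.37 to 1.05 TPM.

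On the exonic length the order of the mean levels was Crabp1, Crabp2, Rarb, Rara, Rarg, Rxrb, Rxra, Cyp26a1 and Rxrg. Neighbours in this order had separate replicate ranges for Rarb against Rara, for Rara against Rarg and for Rxra against Cyp26a1, and overlapping ranges otherwise. On the deposited length the order was Crabp1, Crabp2, Rxrb, Rara, Cyp26a1, Rarg, Rxra, Rarb and Rxrg, where ranges were separate only for Rarg against Rxra and for Rxra against Rarb. With 2 libraries, separate ranges do not amount to a test.

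A mean of at least 1 TPM was reached by 5 of the 9 genes on the deposited length, where 52.7% of all genes reached it, and by 6 of 9 on the exonic length, where 54.4% did. The median of the 9 was 1.08 TPM on the deposited length, against 1.35 for all genes, and 1.15 TPM on the exonic length, against 1.84. The former median was 0.712 TPM without replicate 1 and 1.446 TPM without replicate 2, on either side of the value for all genes. Their exonic levels ran from the 35.2nd percentile of all genes for Rxrg to the 63.9th for Crabp1. Genes of like GC content gave other places for some of them. Among the 2891 genes within 2 percentage points of its transcript GC, Crabp1 stood at the 82.4th percentile, Rara at the 65.4th among 1920 genes, and Rarb at the 47.2nd among 4585, compared with 51.6 for Rara and 55.3 for Rarb over all genes.

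Scaled by library totals, 6 of the 9 genes differed between the libraries beyond counting error. The 2 counts of each gene were compared with the ratio of the library totals by a two-sided exact binomial test with Benjamini-Hochberg adjustment over the 14536 genes whose counts summed to 10 or more, which compares these 2 libraries and not conditions. Of the 8 genes tested, 6 were lower in replicate 2 and 0 were higher, against 45.7% of all tested genes lower and 15.1% higher. The median log2 ratio of replicate 2 to replicate 1 was -0.98 for the 8 and -0.31 for all tested genes. Among the 5009 tested genes with 10 to 160 counts in total, a range that holds all 8, the median was -0.67, with 35.4% lower and 1.22% higher. Rxrg, with 9 counts, was not tested.

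Crabp2 and Crabp1 differed the most, with log2 ratios of -1.82 (adjusted p = 0.000118, exact binomial test) and -1.28 (adjusted p = 0.000167, exact binomial test). Rxrb followed at -1.27 (adjusted p = 0.0157, exact binomial test), Rarg at -0.91 (adjusted p = 0.0489, exact binomial test) and Rxra at -0.82 (adjusted p = 0.0395, exact binomial test). Rara was lower by the least of the 6, at -0.62 (adjusted p = 0.0364, exact binomial test). The remaining values were 0.21 for Rarb (adjusted p = 0.488, exact binomial test) and -1.05 for Cyp26a1 (adjusted p = 0.314, exact binomial test).

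Across all genes the difference between the libraries moved with GC content. Over 14421 tested genes the ratio fell with the GC content of the transcript, with a Spearman's rho of -0.63 across genes, which are not independent replicates. The median transcript GC was 57.04% for the 9 genes and 49.2% for all tested genes. Of tested genes between 54% and 58% GC, 68.4% were lower in replicate 2, with a median log2 ratio of -0.90, and of those at or above 58% GC 61.6% were lower, with a median of -0.97. The 8 genes did not line up by GC among themselves. Rarb, with the lowest GC of the 9 (47.8%), had the highest ratio, but Crabp2, with the next lowest (50.6%), had the lowest ratio, and Rara at 59.2% was lower by the least of the 6 called.

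After subtraction of a cubic GC trend fitted on all tested genes, Crabp2 alone was still lower, at a log2 ratio of -1.24 (adjusted p = 0.0222, exact binomial test), and Rarb was higher, at 0.55 (adjusted p = 0.0495, exact binomial test). With that trend 17.3% of the 14421 tested genes were lower and 29.2% higher, so 1 of 8 in either direction was below the share over all genes. Rara, Rarg and Rxra then changed sign, to 0.50, 0.20 and 0.22, and none of the 3 passed the test. Crabp1 stood at -0.22 and Rxrb at -0.13. Scaling by TMM factors, which shift every log2 ratio by 0.26, left Crabp1 and Crabp2 as the only members called lower, 2 of 8 beside 28.9% of all tested genes, and split all tested genes into 4203 lower and 4187 higher in place of 6640 and 2202. Crabp2 was below the threshold under each of the 5 other settings tried, with adjusted p from 0.000106 to 0.0222 over all settings (exact binomial test). The cause of the difference between the libraries was not tested.

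**Figure D3:**
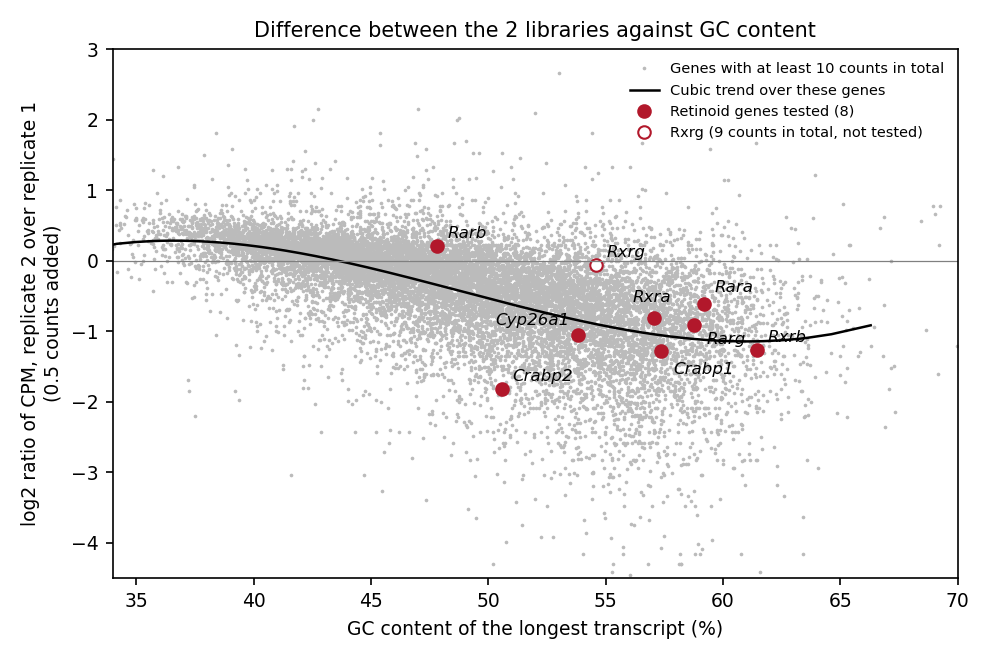
Log2 ratio of CPM of replicate 2 to replicate 1 against the GC content of the longest transcript in percent, for genes whose counts summed to 10 or more (grey; 37 lie outside the axes), with the cubic trend (line) and the 9 retinoid genes (red, Rxrg open). Relative to the trend, Crabp2 lies at -1.24 and Rarb at 0.55, Rara at 0.50, Rxrg (9 counts in total) at 0.84, and Rarg, Rxra, Rxrb, Crabp1 and Cyp26a1 between -0.22 and 0.22.

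Of the wider retinoid pathway, 60 further genes in lists of uptake, synthesis, degradation, carriers, coregulators and responding genes were in the table. Of these, 37 reached 1 TPM on the exonic length and 31 on the deposited length, beside 54.4% and 52.7% of all genes. Of the 43 tested, 17 were lower in replicate 2 and 4 higher, beside 45.7% and 15.1% of all tested genes. Their median log2 ratio was -0.31, the same as for all tested genes.

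Genes upstream of the receptors were unevenly expressed. In the uptake and binding list 3 of 7 reached 1 TPM on the exonic length: Rbp4, the retinol carrier of plasma, at 4.57 ± 0.983 TPM, Rbp7, a cellular retinol binding protein, at 2.59 ± 1.78 TPM, and Lrat, which stores retinol as esters, at 2.50 ± 0.00445 TPM (SD, n = 2 each). Stra6, the receptor for retinol uptake, had 1 count in each library. In the synthesis list 10 of 14 reached 1 TPM (7 on the deposited length), led by the broadly expressed dehydrogenases Adh5 at 321 ± 134 TPM, Rdh11 at 80.8 ± 14.7 TPM and Rdh14 at 39.0 ± 4.03 TPM (SD, n = 2 each). Rdh10, which makes retinaldehyde from retinol in the embryo, stood at 17.1 ± 0.721 TPM, and Rdh13 and Dhrs4 at 12.1 and 6.31 TPM. Whether the enzymes of this list acted on retinoids in these cells, and in which direction, was not tested.

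The enzymes of the last step, from retinaldehyde to retinoic acid, were among the low genes of that list. Aldh1a2 received 27 and 17 counts, Aldh1a3 43 and 37, and Aldh1a1 0 in both libraries. On the exonic length Aldh1a2 stood at 1.41 ± 0.242 TPM and Aldh1a3 at 1.33 ± 0.0638 TPM (SD, n = 2 each). On the deposited length their means were 0.207 and 0.844 TPM. On the degrading side, none of the 3 Cyp26 genes reached 1 TPM on the exonic length. Cyp26c1 received 5 and 4 counts and Cyp26b1 3 and 3, so all 3 genes lay near the floor. The other carrier of the list, Fabp5, a fatty acid binding protein that can also carry retinoic acid, was above both Crabp genes at 23.98 ± 5.36 TPM (207 and 121 counts).

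Receptor coregulators were mostly at higher levels than the receptors. All 16 reached 1 TPM on the exonic length and 15 on the deposited length, with a median of 36.1 TPM on the exonic length, where the highest receptor, Rarb, had 3.22. The highest were Trim24 at 312 ± 28.8 TPM, Ncor1 at 171 ± 14.8 TPM, Tbl1x at 114 ± 8.81 TPM, Tbl1xr1 at 93.8 ± 11.9 TPM and Nsd1 at 89.9 ± 9.58 TPM (SD, n = 2 each). Ncor1, Tbl1x and Tbl1xr1 belong to the corepressor complex that unliganded receptors recruit.

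Genes known to respond to retinoic acid were mostly low. Of 26, which include Crabp2, Rarb and Cyp26a1, 10 reached 1 TPM on the exonic length (7 on the deposited length), with a median of 0.497 TPM against 1.84 for all genes. Among the highest were Bhlhe40 at 32.6 TPM, Crabp2 at 3.94 TPM, Egr1 at 3.83 TPM and Stra8 at 3.56 TPM. Hoxb1, Hoxb2, Hoxd4, Cdx2 and Rarres2 were without a count in either library, which limits their level to 0.126 and 0.148 CPM. Promoter windows existed for 16 of the 26 genes (22 windows), and a DR5 was found for Rarb and Cyp26a1 and for no other gene of the list.

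Within the nuclear receptor family, 25 of 49 genes (51.0%) reached 1 TPM on the exonic length and 18 (36.7%) on the deposited length, beside 54.4% and 52.7% of all genes, and on the exonic length the 6 retinoid receptors ranked from 12th (Rarb) downwards. The 5 highest of the family were Nr0b1 at 203 ± 61.4 TPM, Nr1d2 at 103 ± 17.9 TPM, Nr3c1 at 76.4 ± 13.3 TPM, Esrrb at 73.8 ± 39.6 TPM and Nr2c2 at 44.1 ± 3.35 TPM (SD, n = 2 each). Nr0b1 and Esrrb belong to the pluripotency network of ES cells. Closest by the mean over the 2 libraries of log2 exonic TPM, which is not the log of the mean TPM, and leaving out the retinoid receptors themselves, were Nr4a1 to Rara, Thra to Rarb and Crabp2, Thrb to Rarg, Esr1 to both Rxra and Rxrb, Nr1d1 to Rxrg, Pgr to Crabp1 and Pparg to Cyp26a1. Of 16 known dimer partners of the retinoid X receptors, 9 reached 1 TPM on the exonic length and 5 on the deposited length. Rarb had the highest mean of them on the exonic length, although Thra and Nr4a1 were above it in replicate 1. On the deposited length Rarb ranked 13th of the 16 partners and 37th of the 49 genes of the family.

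**Figure D4:**
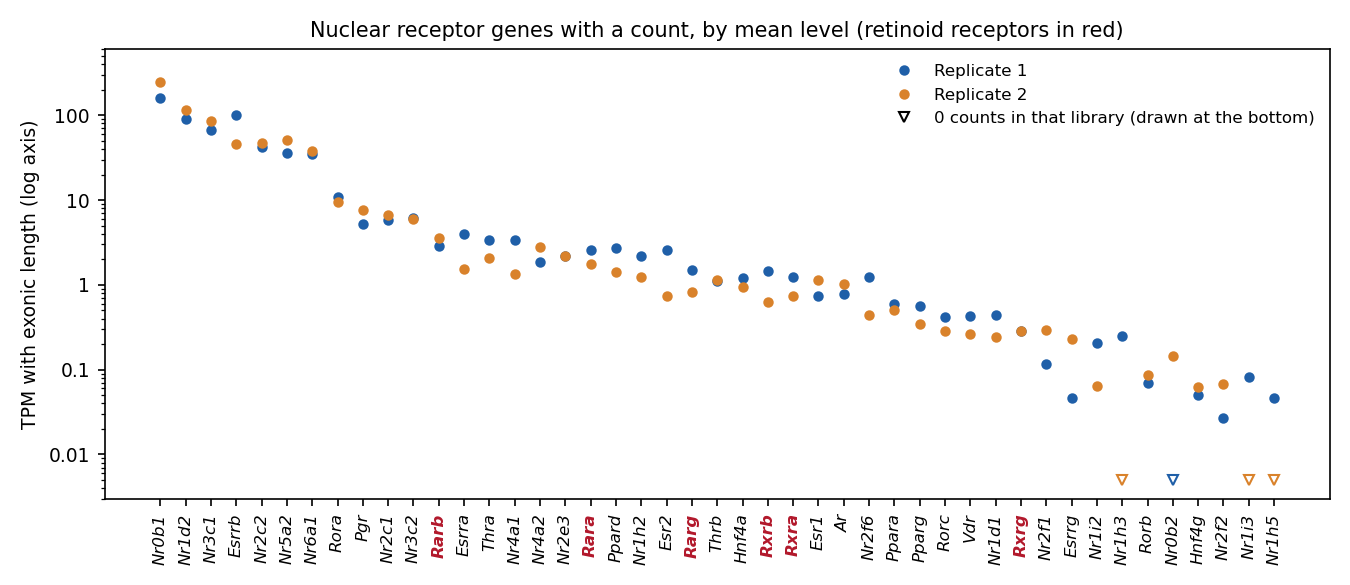
TPM on exonic length (log axis) of the 45 nuclear receptor genes with at least 1 count, ordered by mean, with replicate 1 in blue and replicate 2 in orange; triangles at the bottom mark a library with 0 counts. The retinoid receptors (red names) run from Rarb at 3.22 TPM to Rxrg at 0.287 TPM, below Nr0b1 at 203 TPM.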

How the data were processed

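Polyadenylated RNA from 2 replicates of 1 group was analysed. The authors deposited raw counts per gene, made by featureCounts 1.5.2 (its version read from the table) over whole transcripts on mm10 in paired, reverse-stranded mode. The submitters' processing notes list Bowtie2 2.3.2 and STAR 2.4.2a, with no roles. The deposited length equals the union of transcript spans. Count columns were matched to samples by name, except for a letter b that the column names lack. Gene positions are printed as in the table, where 58.3% of starts lay 1 base below those of RefSeq.

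TPM was computed per library from the counts and the deposited length, and averaged over the replicates as in the study. The exonic length came from GENCODE M21 basic (22192 genes, 98.4%, by symbol or older symbol), and the GC content from each gene's longest transcript. Log2 ratios between replicates were taken on CPM after adding 0.5 counts. The binomial test used scipy 1.17.1 and Benjamini-Hochberg adjustment at 0.05, and was tested on simulated data. The simulated counts held counting error and known changes, without the GC trend between these libraries, so they do not cover that difference. Alternatives used TMM factors (edgeR 4.0.16, R 4.3.3), DESeq2 1.42.0 size factors, a GC trend of degree 3, other count filters, and other length and TPM thresholds. A DESeq2 or edgeR test was not run, since there is 1 group. The comparison of Rarb with Rara and the percentile among genes of like GC were added after seeing the data.

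The members and gene lists were chosen with earlier results of these data known. Named beside the members were up to 6 genes at or above 1 TPM of each uptake, synthesis, degradation and carrier list, the 5 highest coregulators, responding genes and nuclear receptors, responding genes at 0, the nuclear receptor closest in level to each member, and overlapping genes. Stra6 and the low Aldh1a and Cyp26 genes were named after their values were seen. Reads carry no molecular identifiers. Some listed genes are not reported here.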

Additional observations from a re-analysis of the deposited data

How the results depend on the processing

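Of 176 alternatives over 46 results, 114 kept direction and call, or kept the value within its spread. Another 41 moved a value, 13 lost and 1 gained a call, and 7 reversed a direction. For the mean TPM of each gene, leaving out 1 of 2 replicates could not fail, as each replicate lies within the SD of their mean. Crabp2, at 4.04 ± 3.04 TPM on the deposited length, went to 1.89 without replicate 1 and 6.19 without replicate 2. Such alternatives are among the 114 and do not measure stability. With exonic in place of deposited length, the log2 ratio was -0.91 for Rarg to Rara, 0.075 for Rxrb to Rxra, -1.05 for Crabp2 to Crabp1, -1.49 for summed Rxr to summed Rar, and 0.57 for Rarb to Rara, by construction of the length. Leaving out each replicate in turn gave -0.047 (without replicate 1) to 0.46 for summed Rxr to summed Rar and -0.43 (without replicate 1) to 0.16 for Crabp2 to Crabp1. At 5 TPM on the deposited length 0 of the 9 genes and 7 nuclear receptors were counted, and at 0.1 TPM 35 nuclear receptors and 47 genes of the wider lists. Genes of the 9 lower in replicate 2 numbered 2 with TMM factors, 2 with DESeq2 size factors, 3 with no filter, and 1 with the GC trend (28.9%, 26.1%, 28.1% and 17.3% of all genes tested), under which 1 was higher and the log2 ratios of Rara, Rarg and Rxra turned to 0.50, 0.20 and 0.22, and the cause was not tested. The test between replicates cannot be run without a replicate. No paired analysis was possible because both libraries belong to 1 group. Depth limits Rxrg and Cyp26a1 most, at 3 to 8 counts a library.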
